A study of Mus musculus with 6 samples.

Results

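The genes described here encode the machinery that fuses and divides mitochondria in mouse tumor Leydig cells of the MA-10 line and in STARKO1, the line made from them without functional STAR. They were taken by symbol from the deposited count table: Mfn1, Mfn2, Opa1, Oma1, Dnm1l, Fis1, Mff, Mief1, Mief2 and Phb2. All 10 were found among the 14774 genes of the table, and all 10 passed the filter on low counts that left 11939 genes for testing. The study asked what the constitutive form of STAR, the steroidogenic acute regulatory protein that moves cholesterol into mitochondria, does in Leydig cells. MA-10 cells of wild type genotype (3 libraries) were compared with STARKO1 cells (3 libraries), in which CRISPR/Cas9 directed to exon2 of Star had left a short frameshift deletion. Both lines were labelled as Leydig cells of the testis, were untreated, and were sequenced from total RNA. STARKO1 grew from 1 sorted cell, so the knockout and any other feature of that clone cannot be told apart.

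Mitochondria form a network that is remodelled by dynamin-related GTPases. Mitofusins join outer membranes and OPA1 joins inner membranes, whereas DRP1, the product of Dnm1l, is recruited from the cytosol to the outer membrane and constricts the organelle. In steroidogenic cells this network carries particular weight, because cholesterol is delivered to, and first cleaved in, the mitochondria. The genes are described below by role: fusion at the outer membrane (Mfn1, Mfn2), fusion and quality control at the inner membrane (Opa1, Oma1, Phb2), the fission GTPase (Dnm1l), and its outer membrane adaptors (Fis1, Mff, Mief1, Mief2).

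The libraries held 14114349 to 19530054 counts each, of which the 10 genes made up 0.0453% to 0.0861%. Counts of Star were 1064, 1261 and 697 for MA-10 replicates 1 to 3 and 48, 46 and 36 for STARKO1, a log2 fold change of -5.09 (edgeR adjusted p = 0.00121). Of 10 Leydig markers, 10 were in the table, with a summed level of 1610 to 2130 CPM (the count over the scaled library total) in MA-10 and 1620 to 1680 CPM in STARKO1. Of the 5 markers in each other list, 0 of the Sertoli cell, 1 of the germ cell and 2 of the macrophage markers were in the table, the last at 4.86 to 9.85 CPM in sum. The 2 endothelial markers present summed to 26.4 to 41.5 CPM in MA-10 and 118 to 124 CPM in STARKO1, and the 2 peritubular myoid markers to 13.0 to 20.5 and 1.72 to 2.59 CPM. The MA-10 libraries were not alike: 7SL RNA, the RNA of the signal recognition particle, made up 1.81% of all counts in replicate 1, 14.4% in replicate 2 and 6.63% in replicate 3, against 1.82% to 2.37% for STARKO1. By this measure MA-10 replicate 1 stood nearer to STARKO1 than to its sister libraries, and counts of called genes below are also given without it. Its part in the results was not tested.

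Base composition and motif letters were read in the promoters of the 10 genes. In the 250 bases before each RefSeq start on GRCm38.p6 (15 windows for the 10 genes), the median GC content was 62.0% and the median number of CpG was 16, against 52.4% and 6 over all 32851 windows. Those windows belong to 27025 genes, tested here or not. No values were computed over the tested genes alone, so a trait of expressed genes in general cannot be told from one of these 10. Letters of 7 motifs were searched on both strands. The SP1 letters GGGCGG were found in 13 of the 15 windows, against 32.7% of all windows. Every one of the 10 genes had them in at least 1 window, and no share per gene was computed over all genes. Windows of the same gene can overlap, as those of Mff do, and can then hold the same match. The NRF1 letters GCGCNTGCG, named for nuclear respiratory factor 1, which drives many nuclear genes of the mitochondrion, were found for Opa1 and Oma1. They were in 2 of the 15 windows, against 5.19% of all windows. The ETS letters CCGGAAG were found for Mfn1, Phb2, Fis1 and Mief1, in 4 of the 15 windows (6.91% of all windows). The E-box CACGTG was found for Mief2, in 1 of the 15 windows (6.02%). The YY1 letters AAGATGG (4.49%), the SF-1 letters CAAGGTCA (1.33%) and the CRE letters TGACGTCA (1.55%) were in none of the 15 windows. The windows of 3 genes are printed, 5′ to 3′, as Opa1 carries 2 overlapping NRF1 matches and Phb2 and Mief2 had the smallest unadjusted p-values in the comparison below. Capitals mark the NRF1 letters in Opa1, the ETS letters in Phb2 and the E-box in Mief2; none of these matches is a measured binding site.
Opa1, chr16:29579084-29579333, plus strand: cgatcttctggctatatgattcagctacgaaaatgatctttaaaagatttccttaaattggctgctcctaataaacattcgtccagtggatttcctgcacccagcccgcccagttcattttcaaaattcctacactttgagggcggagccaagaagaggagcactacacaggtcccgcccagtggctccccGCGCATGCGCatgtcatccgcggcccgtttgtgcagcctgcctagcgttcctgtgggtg
Phb2, chr6:124712039-124712288, plus strand: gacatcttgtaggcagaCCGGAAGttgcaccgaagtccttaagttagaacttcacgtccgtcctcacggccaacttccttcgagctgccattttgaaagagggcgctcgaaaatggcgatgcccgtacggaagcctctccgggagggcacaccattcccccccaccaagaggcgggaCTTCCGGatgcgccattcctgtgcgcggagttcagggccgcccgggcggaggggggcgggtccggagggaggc
Mief2, chr11:60728148-60728397, plus strand: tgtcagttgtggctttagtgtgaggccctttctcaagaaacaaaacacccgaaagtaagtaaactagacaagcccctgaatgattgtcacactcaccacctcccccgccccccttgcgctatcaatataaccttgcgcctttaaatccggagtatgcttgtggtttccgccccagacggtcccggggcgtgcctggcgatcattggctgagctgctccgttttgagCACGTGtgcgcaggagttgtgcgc
The NRF1 letters of Opa1 span bases 59 to 50 before its start, the ETS letters of Phb2 bases 233 to 227 and 73 to 67, and the E-box of Mief2 bases 24 to 19.

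The question for these genes was whether cells without STAR transcribe the fusion and fission machinery at other levels than MA-10 cells. At an adjusted p under 0.05 (edgeR, adjusted over all tested genes), 0 of the 10 genes were called, where 9.04% of all tested genes were. At an unadjusted p under 0.05, 3 of the 10 passed, all of them higher in STARKO1: Mief2, Phb2 and Mief1. The background at that threshold was 37.6% in either direction and 15% higher in STARKO1. DESeq2 called 2 of the 10, both higher in STARKO1. It called 28.4% of all tested genes in either direction and 11% as higher. Under TMM scaling the 6 libraries separated the lines without overlap in 7 of the 10 genes, against 42.5% of all tested genes: Mfn2, Oma1, Phb2, Mief1 and Mief2 were higher in every STARKO1 library (21.5% of all genes), and Opa1 and Mff were lower (21%). The study's methods speak of independent experiments in general, but the labels do not say that these replicates were separate cultures; if they were not, p-values measure the spread between these libraries, which may be technical. The log2 fold changes ran from -0.47 for Dnm1l to 0.73 for Phb2, with 5 above and 5 below 0. Their median was -0.03, beside -0.05 over all tested genes, and their median absolute value was 0.40, beside 0.49. Levels are given below in CPM, scaled by the trimmed mean of M values (TMM), for replicates 1, 2 and 3 of each line in that order, and gene positions are on mm10 (GRCm38).

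**Figure D1:**
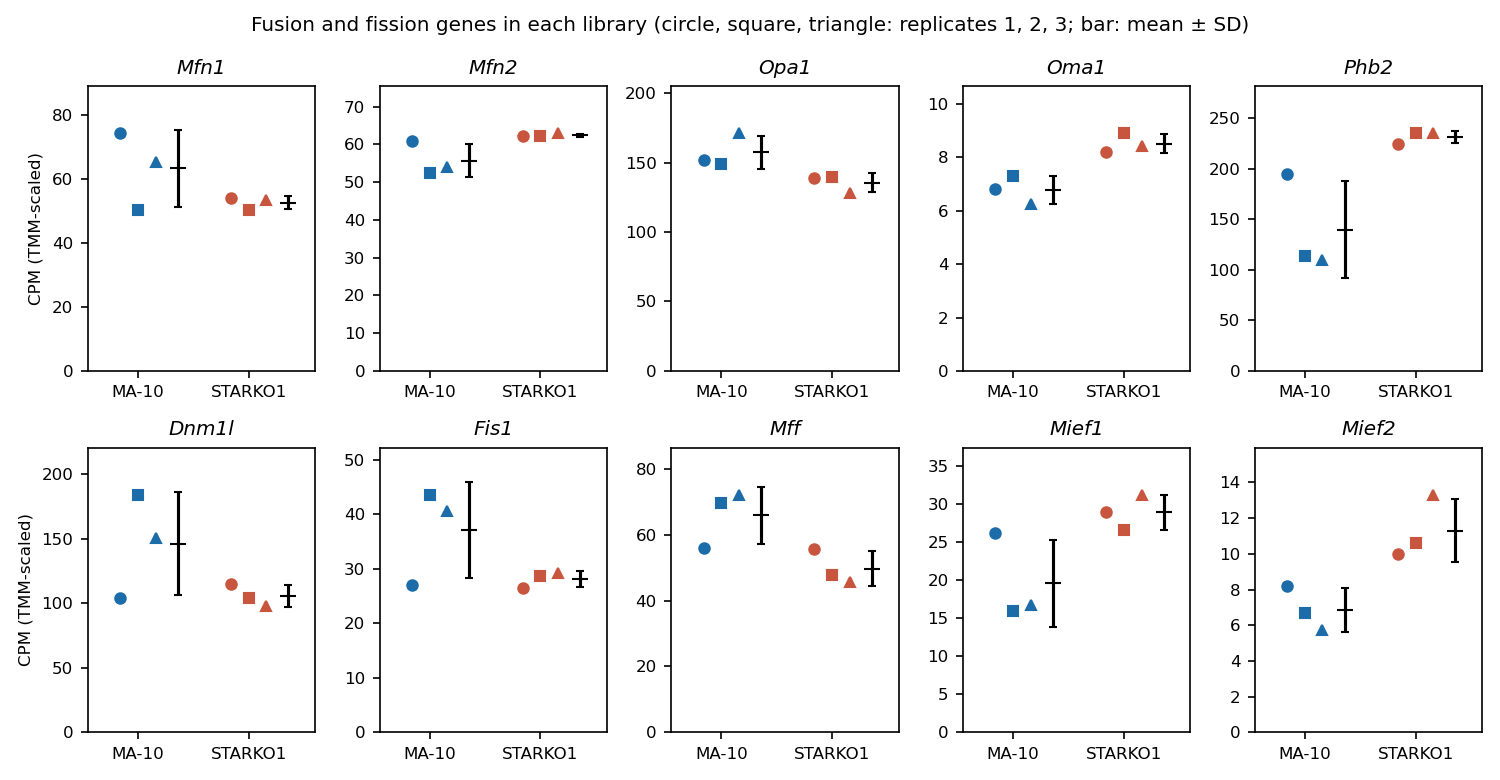
Level of each of the 10 genes in each library, in TMM-scaled CPM (vertical axes from 0), by cell line; circles, squares and triangles are replicates 1, 2 and 3, and bars give the mean ± SD of 3 libraries. The STARKO1 libraries lie close together in most panels. For Mfn2, Phb2, Dnm1l, Fis1, Mff, Mief1 and Mief2 the circle of MA-10 replicate 1 lies nearer to the STARKO1 mean than the square and triangle do.

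Mfn1 and Mfn2 encode the mitofusins, the GTPases that tether and fuse outer membranes; MFN2 also links mitochondria to the endoplasmic reticulum. Mfn1 (chr3:32529465-32579239, plus strand) was at 74.3, 50.3 and 65.5 CPM in MA-10 and at 54.0, 50.3 and 53.6 CPM in STARKO1. The lines overlapped, since MA-10 replicate 2 was as low as the STARKO1 libraries. The log2 fold change was -0.27 (SE 0.184, 95% interval -0.71 to 0.17, adjusted p = 0.306). Mfn2 (chr4:147873599-147904704, minus strand) was at 60.8, 52.4 and 54.0 CPM in MA-10 and at 62.2, 62.3 and 62.9 CPM in STARKO1. Every STARKO1 library was above every MA-10 library, with MA-10 replicate 1 just under them. Mfn2 had a log2 fold change of 0.16 (SE 0.142, 95% interval -0.17 to 0.50, adjusted p = 0.41), so the data allow a change of Mfn2 from 0.887-fold to 1.42-fold.

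The inner membrane genes differed in direction, Opa1 standing below 0 except under scaling by library size alone and Oma1 and Phb2 above. Opa1 (chr16:29579334-29654884, plus strand), the GTPase that fuses inner membranes and shapes cristae, was at 152, 149 and 171 CPM in MA-10 and at 139, 140 and 128 CPM in STARKO1. All 3 STARKO1 libraries were below the MA-10 libraries, and MA-10 replicate 3 was the highest of the 6. For Opa1 the log2 fold change was -0.21 (SE 0.153, 95% interval -0.58 to 0.15, adjusted p = 0.324). Oma1 (chr4:103313812-103371868, plus strand), the stress-activated protease that cuts long OPA1 into its short, fusion-inactive form, was at 6.81, 7.29 and 6.25 CPM in MA-10 and at 8.22, 8.90 and 8.43 CPM in STARKO1. The lines did not overlap. Oma1 had 71 to 191 counts per library, and its log2 fold change was 0.33 (SE 0.166, 95% interval -0.07 to 0.72, adjusted p = 0.188).

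Phb2 (chr6:124712336-124716950, plus strand) encodes prohibitin 2, which forms ring-shaped scaffolds in the inner membrane together with prohibitin and protects long OPA1 from cleavage. It was at 195, 114 and 110 CPM in MA-10, or 140 ± 48.2 (SD, n = 3), and at 225, 235 and 235 CPM in STARKO1, or 232 ± 6.09 (SD, n = 3). The lines did not overlap, but MA-10 replicate 1 was closer to the STARKO1 libraries than to its sister libraries. For Phb2 the log2 fold change was 0.73 (SE 0.258, 95% interval 0.12 to 1.34), with an unadjusted p of 0.0262 and an adjusted p of 0.0949 (edgeR). The small nucleolar RNA gene Gm23547 (chr6:124715232-124715502) lies within Phb2 on the same strand and could share its reads: it had 1.72, 29.1 and 21.8 CPM in MA-10 and 1.55, 2.24 and 2.02 CPM in STARKO1. Both genes summed gave 197, 143 and 132 CPM in MA-10 and 226, 238 and 237 CPM in STARKO1, which still did not overlap. Of the 50-base stretches of the Phb2 transcripts, 4.15% also occur in transcripts of other genes, and its deposited values were not whole numbers.

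Dnm1l (chr16:16312230-16358959, minus strand), the GTPase of fission, was at 104, 184 and 151 CPM in MA-10, or 146 ± 40.2 (SD, n = 3), and at 115, 104 and 98.2 CPM in STARKO1, or 105 ± 8.39 (SD, n = 3). MA-10 replicate 1 lay among the STARKO1 libraries and the other MA-10 libraries lay above them. The fitted log2 fold change was -0.47 (SE 0.235, 95% interval -1.03 to 0.08, adjusted p = 0.181). Sequence shared with other genes made up 4.90% of its 50-base stretches, and the antisense gene Gm49521 that overlaps it had at most 6 counts in a library.

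The 4 adaptors of DRP1 went in pairs, with Fis1 and Mff below 0, except under scaling by library size alone, and Mief1 and Mief2 above. Fis1 (chr5:136953275-136966234, plus strand), the small anchored protein first known as a fission receptor in yeast, was at 27.1, 43.5 and 40.6 CPM in MA-10 and at 26.4, 28.6 and 29.2 CPM in STARKO1. The lines overlapped through MA-10 replicate 1. Its log2 fold change was -0.40 (SE 0.21, 95% interval -0.90 to 0.10, adjusted p = 0.199). Mff (chr1:82724890-82752394, plus strand), a major recruiter of DRP1 to mitochondria and peroxisomes, was at 55.8, 69.6 and 72.0 CPM in MA-10 and at 55.7, 47.7 and 45.5 CPM in STARKO1. The lines were separated by a hair, between 55.8 CPM in MA-10 replicate 1 and 55.7 CPM in STARKO1 replicate 1. Its log2 fold change was -0.41 (SE 0.173, 95% interval -0.82 to 0.00, adjusted p = 0.135).

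Mief1 and Mief2 encode MID51 and MID49, outer membrane proteins that bind DRP1 and can hold it inactive as well as bring it to the division site. Mief1 (chr15:80234018-80253371, plus strand) was at 26.2, 15.9 and 16.7 CPM in MA-10 and at 28.9, 26.6 and 31.2 CPM in STARKO1. Every STARKO1 library was higher, but MA-10 replicate 1 differed from STARKO1 replicate 2 by less than the STARKO1 libraries differed among themselves. Mief1 had a log2 fold change of 0.56 (SE 0.23, 95% interval 0.01 to 1.10), with an unadjusted p of 0.0466 and an adjusted p of 0.128 (edgeR). Mief2 (chr11:60728398-60732951, plus strand) was at 8.19, 6.68 and 5.72 CPM in MA-10, or 6.86 ± 1.24 (SD, n = 3), and at 10, 10.6 and 13.3 CPM in STARKO1, or 11.3 ± 1.74 (SD, n = 3). These groups did not overlap, with 65 to 143 counts per library in MA-10 and 179 to 236 in STARKO1. Its log2 fold change of 0.71 (SE 0.213, 95% interval 0.21 to 1.22) had the smallest p of the 10 genes, 0.0128 unadjusted and 0.0719 adjusted (edgeR).

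The 10 genes varied more among the MA-10 libraries than among the STARKO1 libraries. How far this set the width of the intervals was not tested. The coefficient of variation of the 10 genes had a median of 18.6% in MA-10 (7.39% to 34.5%) and of 4.95% in STARKO1 (0.574% to 15.4%), beside 30% and 6.46% over all tested genes. Of the MA-10 libraries, replicate 1 was the nearest to the STARKO1 mean in 7 of the 10 genes, a share of 70.0% beside 63.9% of all tested genes. Without MA-10 replicate 1, 8 of the 10 genes were called, where 65.7% of all tested genes were. Of these, 5 were higher in STARKO1 (34% of all genes) and 3 were lower (31.7%). The MA-10 libraries kept there, replicates 2 and 3, held 14.4% and 6.63% 7SL RNA, with TMM factors of 0.6544 and 0.8053. The STARKO1 libraries held 1.82% to 2.37%, with TMM factors of 1.173 to 1.191. Cell line and library composition cannot be told apart in that fit. In that fit the log2 fold change was 1.14 for Phb2 (adjusted p = 6.55e-05), 0.92 for Mief1 (0.000431), 0.95 for Mief2 (0.00226), 0.32 for Mfn2 (0.0268) and 0.42 for Oma1 (0.0367). It was -0.58 for Dnm1l (adjusted p = 0.00383), -0.50 for Fis1 (0.00425) and -0.42 for Mff (0.0169). The fusion GTPases Mfn1 (-0.05, 95% interval -0.38 to 0.28) and Opa1 (-0.15, 95% interval -0.43 to 0.13) were not called there. Leaving out any other single library left 0 of the 10 genes called by edgeR, with 0 to 2 at an unadjusted p under 0.05. Of the 12187 to 12235 genes tested in these fits, 89 to 511 were called and 2626 to 3486 passed at an unadjusted p under 0.05. DESeq2 on all 6 libraries called Mief2 (adjusted p = 0.0284) and Phb2 (0.0397), both higher, where it called 28.4% of all genes in either direction and 11% as higher.

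**Figure D2:**
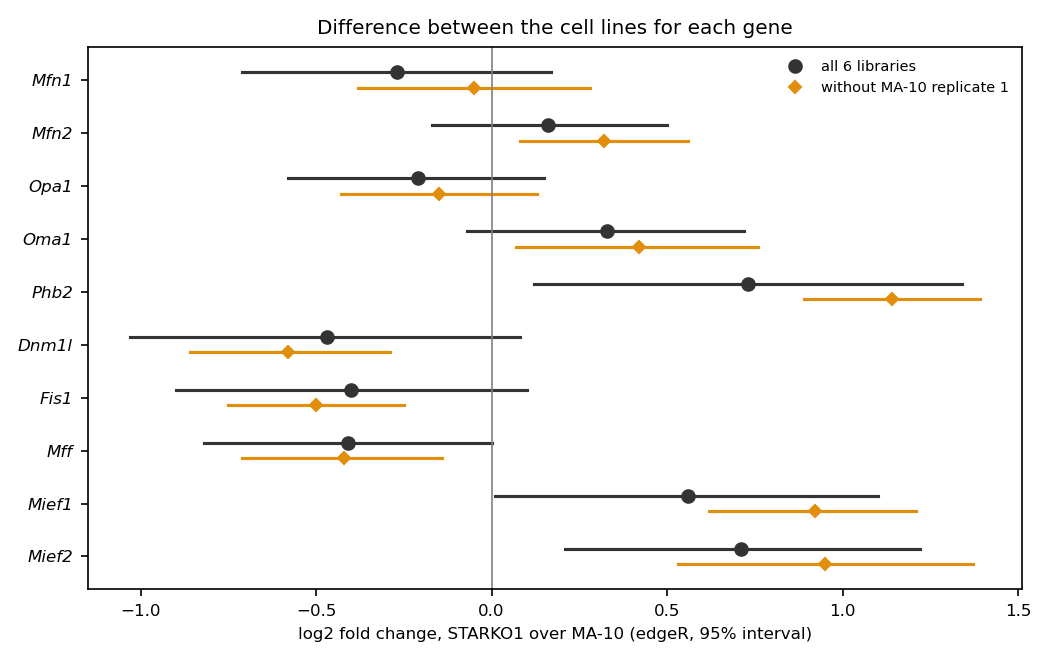
The log2 fold change of STARKO1 over MA-10 for each gene from edgeR, with its 95% interval as a horizontal line; dark circles use all 6 libraries and orange diamonds leave out MA-10 replicate 1. With all libraries the intervals of 7 genes reach 0, and without MA-10 replicate 1 those of Mfn1 and Opa1 do.

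Some values depended on the processing. With offsets for gene length, Fis1 stood at -0.10 and Oma1 at 0.52, and with upper quartile scaling Mfn1 stood at -0.14, Opa1 at -0.07, Dnm1l at -0.30, Fis1 at -0.24, Mff at -0.25 and Mfn2 at 0.30, none of them called. The direction depended on the scaling for 5 genes. Scaling by library size alone moved the median gene by 0.43 on the log2 scale, to 0.38. All 10 genes were then above 0, with Mfn1 at 0.12, Opa1 at 0.22, Dnm1l at 0.04, Fis1 at 0.10 and Mff at 0.07. Relative to the median gene of that scaling they stood at -0.26, -0.15, -0.33, -0.27 and -0.31, below it as under TMM. Setting the median gene to 0 is itself a scaling close to TMM, so these values are no separate support for the direction. Mfn2, Oma1, Phb2, Mief1 and Mief2 were above 0 under all 16 alternatives, Phb2 between 0.58 and 1.14 and Mief2 between 0.58 and 1.11.

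**Figure D3:**
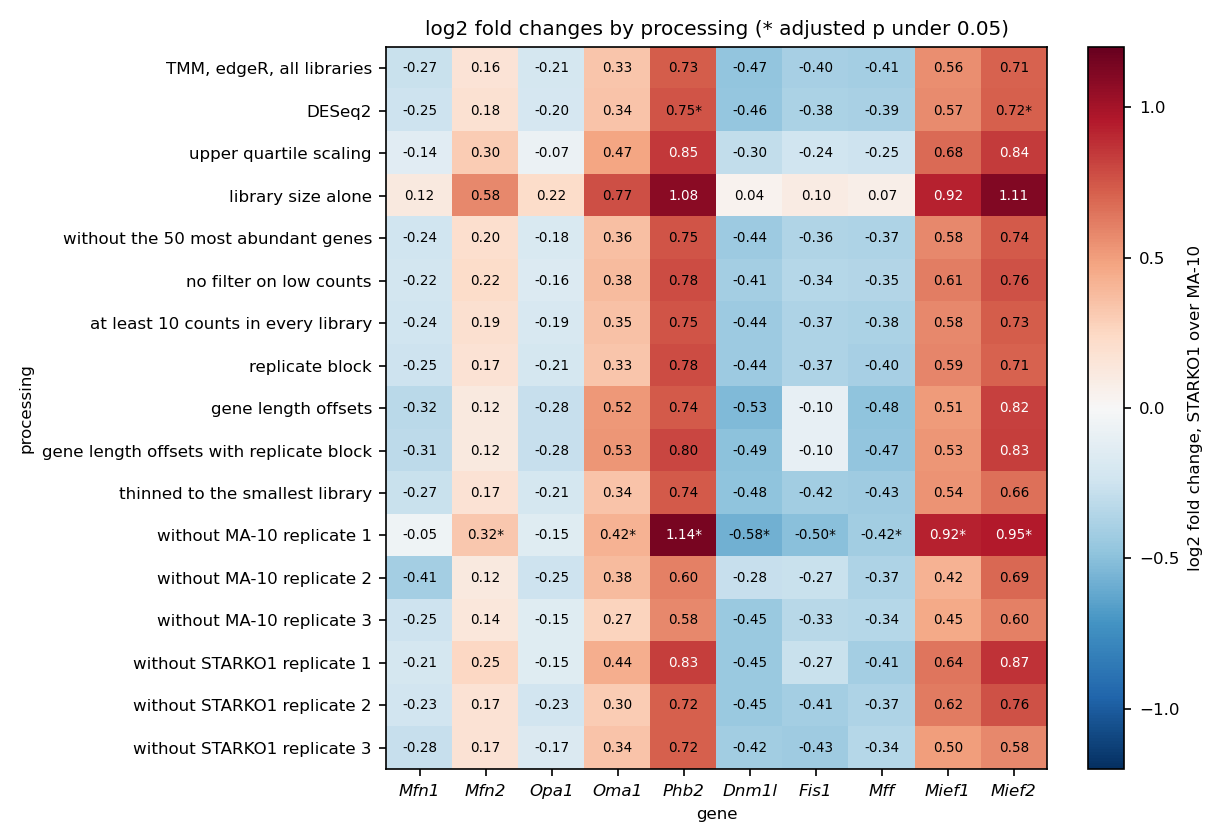
The log2 fold change of STARKO1 over MA-10 (colour and number) for each gene (columns) under each processing (rows), with an asterisk where the adjusted p was under 0.05. Asterisks appear in the row for DESeq2, for Phb2 and Mief2, and in the row without MA-10 replicate 1, for 8 genes.

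Ratios between 2 genes of 1 library do not depend on the scaling. For 5 pairs of partners, chosen with the levels known, the ratio of counts was formed in each library. Its log2 difference was tested with a two-sided exact permutation test, whose smallest possible p with 3 against 3 libraries is 0.1. Once adjusted over the 5 pairs, the smallest p of this test was 0.25. The ratio of Mfn1 to Mfn2 was 1.22, 0.960 and 1.21 in MA-10 and 0.869, 0.807 and 0.853 in STARKO1. The groups did not overlap, and the log2 difference was -0.42 (exact p = 0.1). Opa1 was counted 22.3, 20.5 and 27.3 times as often as Oma1, the protease that cleaves its product, in MA-10 and 16.9, 15.7 and 15.2 times as often in STARKO1. These groups did not overlap either, with a log2 difference of -0.54 (exact p = 0.1). Leaving out each library in turn kept the first difference between -0.53 and -0.36 and the second between -0.63 and -0.43. The other ratios overlapped. How often ratios of other gene pairs separate the lines was not computed, and single genes did so for 42.5% of all tested genes. Mief1 to Mief2 was 2.83 ± 0.42 in MA-10 and 2.59 ± 0.272 in STARKO1 (SD, n = 3 each, exact p = 0.4). Dnm1l to Mff was 2.20 ± 0.40 and 2.13 ± 0.0616 (exact p = 0.9), and Phb2 to its partner prohibitin, Phb, was 0.936 ± 0.256 and 1.11 ± 0.0294 (exact p = 0.4).

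**Figure D4:**
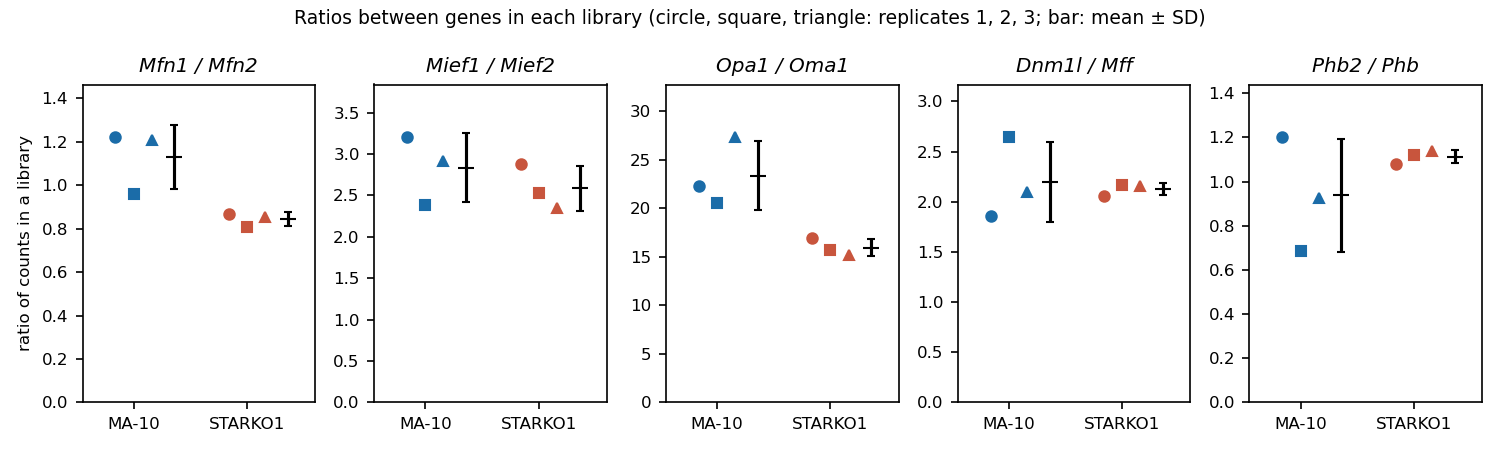
Ratio of the counts of 2 genes within each library (vertical axes from 0), by cell line; circles, squares and triangles are replicates 1, 2 and 3, and bars give the mean ± SD of 3 libraries. The lines separate for Mfn1 to Mfn2, at 0.960 to 1.22 against 0.807 to 0.869, and for Opa1 to Oma1, at 20.5 to 27.3 against 15.2 to 16.9.

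Levels of different genes were set side by side per kilobase of exon. Phb2 was the highest in both lines, at 37.6 ± 13.0 CPM per kilobase in MA-10 and 62.3 ± 1.64 in STARKO1 (SD, n = 3). Dnm1l followed at 28.1 ± 7.72 and 20.3 ± 1.61, and then Fis1 and Opa1, at 21.6 and 20.0 in MA-10 and at 16.4 and 17.2 in STARKO1. In MA-10 the libraries of each neighbour overlapped down to Opa1, so the order of neighbours among these 4 genes did not hold beyond their spread. Every Phb2 library in MA-10 (29.6 to 52.5) was nevertheless above those of Fis1 (15.8 to 25.4) and Opa1 (19.0 to 21.7). In STARKO1 Phb2 and Dnm1l stood clear of the rest. The mitofusins were near each other in MA-10, at 10.7 for Mfn2 and 10.4 for Mfn1, and apart in STARKO1, at 12 and 8.61. Mff was at 6.74 and 5.09. Oma1, Mief2 and Mief1 were the lowest, at 2.42 to 3.16 in MA-10 and 3.57 to 4.15 in STARKO1, and their libraries overlapped in both lines; those of Mff and Mief2 overlapped in STARKO1 as well.

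A list of 55 further genes that shape, process or regulate this machinery was read in the same fit. Of these, 53 were in the table (Gdap1 and Trak1 were not) and 52 were tested. Miga1 had too few counts. Of the 52, 3 were called (5.77%, beside 9.04% of all tested genes), 17 passed at an unadjusted p under 0.05 (37.6% of all tested genes did), and the median log2 fold change was 0.06. The groups did not overlap for 25 of the 52 (48.1%, beside 42.5% of all genes), with 14 higher and 11 lower in STARKO1. One gene was called in each of the 3 subgroups, which held 17 tested outer membrane and shape factors, 15 inner membrane proteases, prohibitin partners and cardiolipin enzymes, and 20 kinases, phosphatases and ubiquitin or SUMO enzymes.

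Among the outer membrane factors, Miga2, which encodes mitoguardin 2, a protein that promotes fusion through mitochondrial phospholipase D, rose. It was at 12.9, 9.63 and 8.72 CPM in MA-10 and at 27.8, 28.1 and 32.4 CPM in STARKO1, a log2 fold change of 1.5 (SE 0.2, edgeR adjusted p = 0.0101). MA-10 replicate 1 was the nearest to STARKO1 but far from overlapping it. Among the inner membrane genes, Chchd10, a small protein of the space between the membranes that is tied to cristae, fell. It was at 53.8, 64.4 and 79.9 CPM in MA-10 and at 15.5, 18.2 and 17.5 CPM in STARKO1, a log2 fold change of -1.95 (SE 0.197, edgeR adjusted p = 0.00456). Its call held in 15 of 16 alternatives and was lost without STARKO1 replicate 1 (adjusted p = 0.0532). Among the kinases, Prkaa2, a catalytic subunit of AMP-activated kinase, which phosphorylates MFF, fell, from 52.2, 56.5 and 64.1 CPM to 36.4, 30.1 and 35.0 CPM. Its log2 fold change was -0.77 (SE 0.162, edgeR adjusted p = 0.0372). Prkaa1, which encodes the other catalytic subunit, had means of 110 CPM in MA-10 and 88.7 CPM in STARKO1. It was not called (log2 fold change -0.31, edgeR adjusted p = 0.229). Prkaa2 was called in 6 of 16 alternatives, and leaving out any library but MA-10 replicate 1 raised its adjusted p to between 0.0631 and 0.187. Miga2 was called in 11 of 16, with an adjusted p of 0.0563 without MA-10 replicate 3 and of 0.0624, 0.0642 and 0.076 without STARKO1 replicates 1, 2 and 3. Without MA-10 replicate 1, 26 of the 52 genes were called, 14 higher and 12 lower, where 65.7% of all tested genes were called.

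**Figure D5:**
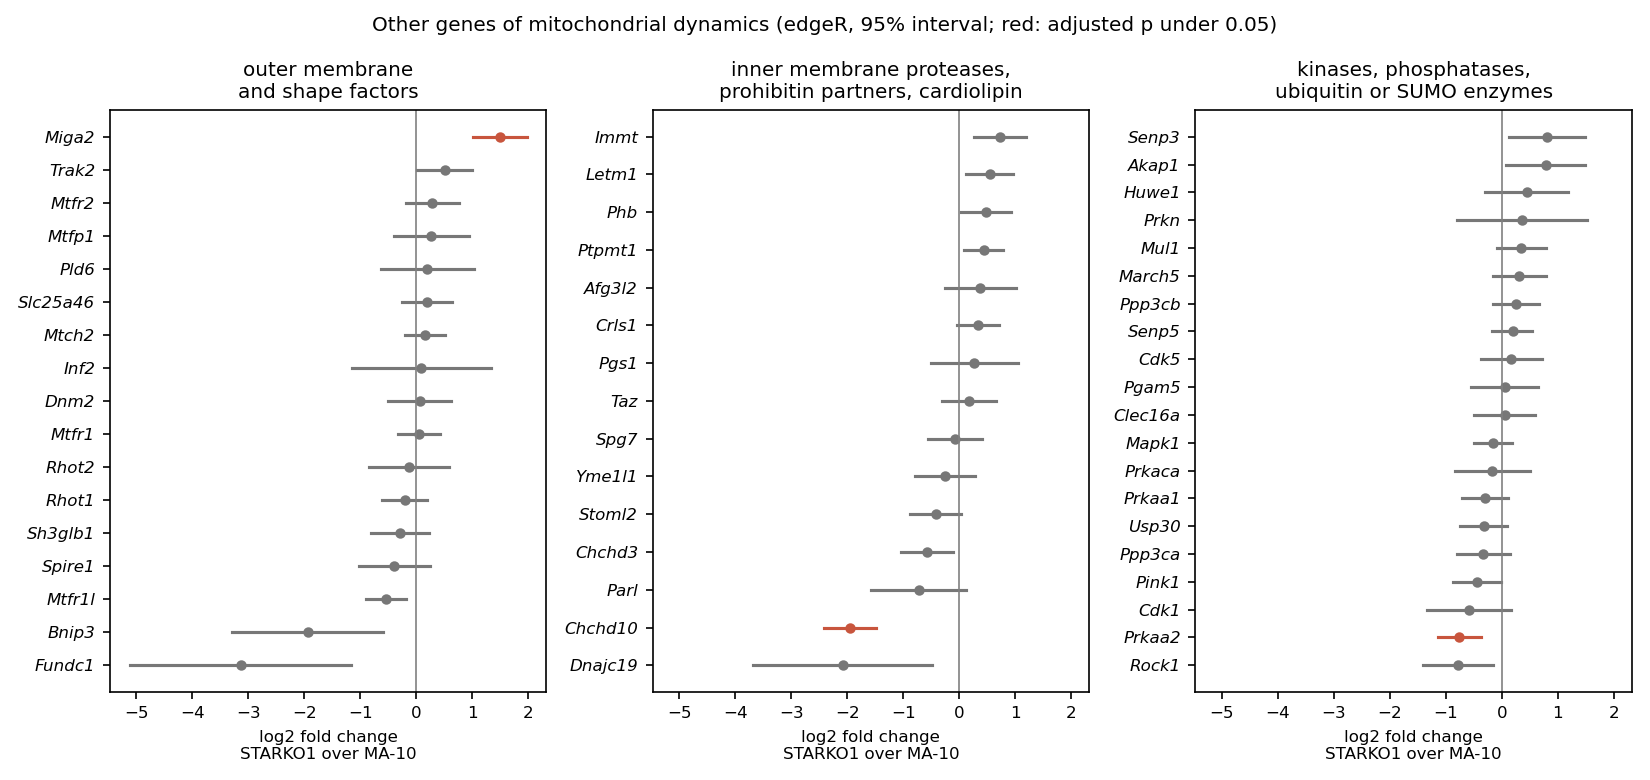
The log2 fold change of STARKO1 over MA-10 with its 95% interval (edgeR, all 6 libraries) for the 52 tested genes of the wider list, in 3 panels by role. The called genes, in red, are Miga2 at 1.5, Chchd10 at -1.95 and Prkaa2 at -0.77.

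With mitochondrial content in mind, the RNA levels of 20 other mitochondrial genes, such as those of the outer membrane, matrix and respiratory chain, were read. All 20 were tested. Of these, 0 were called by edgeR, where 9.04% of all tested genes were, with a median log2 fold change of -0.08 and a range of -1.26 to 0.61. At an unadjusted p under 0.05, 4 of the 20 passed (37.6% of all genes), and DESeq2 called 2 (28.4%). Without MA-10 replicate 1, edgeR called 12 of the 20, 4 higher and 8 lower in STARKO1, beside 65.7% of all genes. Transcripts of the mitochondrial genome made up 7.42%, 7.49% and 8.76% of the counts in MA-10 and 7.43%, 6.88% and 6.52% in STARKO1. These are shares of the unscaled library totals, unlike the TMM-scaled levels above. The TMM factors were 1.155, 0.6544 and 0.8053 in MA-10 and 1.191, 1.176 and 1.173 in STARKO1. Under TMM scaling these transcripts therefore stood higher in MA-10 replicates 2 and 3 than in the other libraries. In bulk RNA, the number of mitochondria per cell and the amount of transcript per mitochondrion cannot be told apart. These levels therefore do not measure mitochondrial content.

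For the GTPase genes Mfn1, Mfn2 and Dnm1l, the 3 tested genes outside all lists with the most similar pattern were taken by Pearson r of log2 CPM over the 6 libraries. They were Rhpn2 (r = 0.9953), Hivep2 and Kctd13 for Mfn1, Prrc2b (0.9999), Sh3tc1 and Gm2423 for Mfn2, and mt-Co3 (0.9974), Arl5a and Gm28437 for Dnm1l. An r over 0.95 was shared by 68 genes for Mfn1, but by 1429 for Mfn2 and 1468 for Dnm1l. These values describe 6 libraries that share 1 split between lines and the same differences in composition, so they carry no test.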

How the data were processed

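RNA of 3 MA-10 and 3 STARKO1 libraries was compared. The authors deposited 1 table of estimated counts per gene with replicates kept apart and no normalization. The kit was the stranded Takara SMARTer Pico kit, on total RNA. The submitters' processing notes name STAR 2.6.1d, Partek and mm10; the counting settings, strand included, are not given in the sources used here, and whether duplicate reads were removed is not either. The statistics section of the study names a Student test for all data and none for these counts.

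Values were rounded (5331 of 14774 genes had a value not whole to within 0.005). Genes passing filterByExpr were tested with edgeR 4.0.16 (R 4.3.3; glmQLFit, glmQLFTest, TMM) without a replicate block, with Benjamini-Hochberg adjustment over 11939 genes. A gene was called at an adjusted p under 0.05, and standard errors (SE) and 95% intervals were derived from the fold change and its F statistic. The biological coefficient of variation was 0.291. Scripts were tested on simulated data. Gene ends and exon lengths came from GENCODE M21 on the same build (14641 of 14774 genes matched by symbol and chromosome), and the promoter sequences from RefSeq, GRCm38.p6. DESeq2 1.42.0, other scalings and filters, gene length offsets, thinning, a replicate block and leaving out each library were tried as alternatives.

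All 10 genes were named, as were the called genes of the wider list, Star, and the genes most alike the core GTPases; those for Opa1 are not reported here. The genes and lists were chosen with earlier results of these data known.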

Additional observations from a re-analysis of the deposited data

How the results depend on the processing

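The 10 genes gave 160 values under 16 alternatives: 145 kept their direction and their side of the threshold, 10 passed it (8 without MA-10 replicate 1, 2 with DESeq2) and 5 changed sign, all under scaling by library size alone (Mfn1 0.12, Opa1 0.22, Dnm1l 0.04, Fis1 0.10, Mff 0.07), which moved the median gene by 0.43. Of the 10 genes, 0 were called in the edgeR fit to all libraries, 2 by DESeq2, and 0 to 8 when each library was left out. Over all genes, 1079 were called, against 3395 by DESeq2, 330 by library size alone, 695 with at least 10 counts in every library, and 89 to 7990 when each library was left out (7990 without MA-10 replicate 1, 511 and 181 without replicates 2 and 3, and 89, 135 and 93 without STARKO1 replicates 1, 2 and 3). The share of called genes that were higher was 47.5%, and 63.6% by library size alone. Of the wider list, 3 were called, 13 by DESeq2, 1 by library size alone, and 0 to 26 when each library was left out, with 0 without STARKO1 replicate 1 and 26 without MA-10 replicate 1. The cause of these shifts was not tested. Deviations of same-numbered libraries from the means of their lines correlated at -0.0346, 0.0907 and -0.0162 over 8538 genes. Those of differently numbered libraries correlated at -0.099 to 0.0801. With 3 libraries per line, these values cannot tell whether same-numbered libraries were prepared together. With the replicate block 234 genes were called, and 237 with gene length offsets as well. Of the 10 genes, 0 were called in either, and 2 passed at an unadjusted p under 0.05 in each. Over all tested genes, 3692 of 11939 and 3751 of 11854 passed at that threshold. For the ratios, each library was left out in turn as an alternative chosen after seeing the data: the log2 difference ran from -0.15 to 0.11 for Dnm1l to Mff, from 0.08 to 0.48 for Phb2 to Phb and from -0.25 to -0.03 for Mief1 to Mief2. Depth was lowest for Mief2 (65 to 236 counts per library) and Oma1 (71 to 191).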
